A study of Drosophila melanogaster with 9 samples.

Results

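The Imd pathway is the signalling route by which Drosophila cells respond to peptidoglycan of the kind found in Gram-negative bacteria. The genes described are its adaptor, protease, kinase-complex and transcription factor genes, together with pirk, which encodes an inhibitor of the pathway. Members were taken as the probe sets that the platform annotation assigns to pirk, imd, Rel, key, Dredd, Tak1, Tab2 or Fadd. Of these 8 genes, 7 had a probe set assigned to that gene alone, 1 each, among 11573 genes named on the array. Tak1 was not analysed here. The cells were Drosophila S2 cells, a macrophage-like line, and 9 arrays of total RNA form 3 groups of 3. Cells of the NELF dsRNA group received double-stranded RNA (dsRNA) against NELF-B and Nelf-E for 72 h. NELF, the negative elongation factor, holds RNA polymerase II shortly after the start of transcription. Cells of the LacZ dsRNA group received dsRNA against bacterial beta-galactosidase for 72 h as a mock treatment, and untreated cells received none. The comparisons ask how transcript levels change when NELF is depleted and how they change with dsRNA as such.

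In the textbook account of the pathway, the receptors PGRP-LC and PGRP-LE bind peptidoglycan and recruit the death-domain adaptor Imd. Imd binds Fadd, which brings in the caspase Dredd, and Dredd cleaves Imd. Ubiquitin chains then recruit Tab2 with the kinase Tak1, which activates an IκB kinase complex made of IKKbeta and Kenny, the product of key. Dredd and this complex act on Relish, the NF-κB factor encoded by Rel, whose freed part enters the nucleus and turns on antimicrobial peptide genes. Pirk binds the receptor and Imd and limits signalling, and pirk is itself known as a Relish target, so that it forms a feedback loop.

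The values are log2 intensities as deposited, 1 per probe set and array. All 63 values of the 7 members lay above the detection limit of 3.77 on the log2 scale, the 95th percentile of the control probe sets, and the SD within a group ran from 0.006 to 0.30. Each array measured between 13854 and 14196 of 17899 probe sets, NELF dsRNA array 3 the fewest and LacZ dsRNA array 1 the next fewest. Of 11 hemocyte markers 6 were above the limit on every array, among them srp, Pxn and crq. NimC1 was below it on every array, and Hml, eater, Sr-CI and He were below it on at least 1 array. Some hemocyte markers also differed between groups. Against LacZ dsRNA eater fell by 2.66 and drpr by 1.15 and Pxn rose by 0.88 on the log2 scale (limma adjusted p = 6.45e-04, 9.67e-04 and 1.50e-04). Thus 3 of 11 were called, beside 4.53% of all tested probe sets. Against untreated cells eater fell by 2.91 and drpr by 1.25 and srp rose by 0.34, beside 6.22% of all tested probe sets called. Pxn did not pass against untreated cells (log2 difference 0.29, limma adjusted p = 0.186), and srp differed by only 0.07 against LacZ dsRNA. LacZ dsRNA against untreated cells gave -0.60 for Pxn (limma adjusted p = 0.0737) and 0.27 for srp (0.293). The eater values on NELF dsRNA arrays 1, 2 and 3 were 5.01, 3.80 and 2.89, around the limit, so the sizes of its falls are uncertain. The part of these marker changes in the results on the pathway was not tested. Markers of fat body, muscle, germline and gut were above it on every array in none of their probe sets, whereas the neuron marker elav was above it on all 9. The dsRNA targets were low in their own group. NELF-B averaged 4.71 ± 0.15 after NELF dsRNA, against 7.50 ± 0.11 after LacZ dsRNA and 7.24 ± 0.14 in untreated cells (log2 intensity, SD, n = 3 each). Nelf-E lay above the limit on 1 of 3 NELF dsRNA arrays, and with lower values set to the limit it was at least 15.7-fold lower than after LacZ dsRNA and at least 17.0-fold lower than in untreated cells. The samples are whole cultures, so fewer cells of a kind and less RNA per cell cannot be told apart.

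The inhibitor gene pirk fell 1.98-fold against LacZ dsRNA and 2.34-fold against untreated cells, and it was the only one of the 7 members that passed the test (limma adjusted p under 0.05) in either comparison with controls. Of all tested probe sets 4.53% passed against LacZ dsRNA and 6.22% against untreated cells. The transcripts of imd, Fadd, Dredd, Tab2 and key differed between groups by no more than 0.17 on the log2 scale. Rel lay between these, slightly lower in every NELF dsRNA array than in any control array, without passing the test. None of the 7 passed between the 2 control groups.

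**Figure D1:**
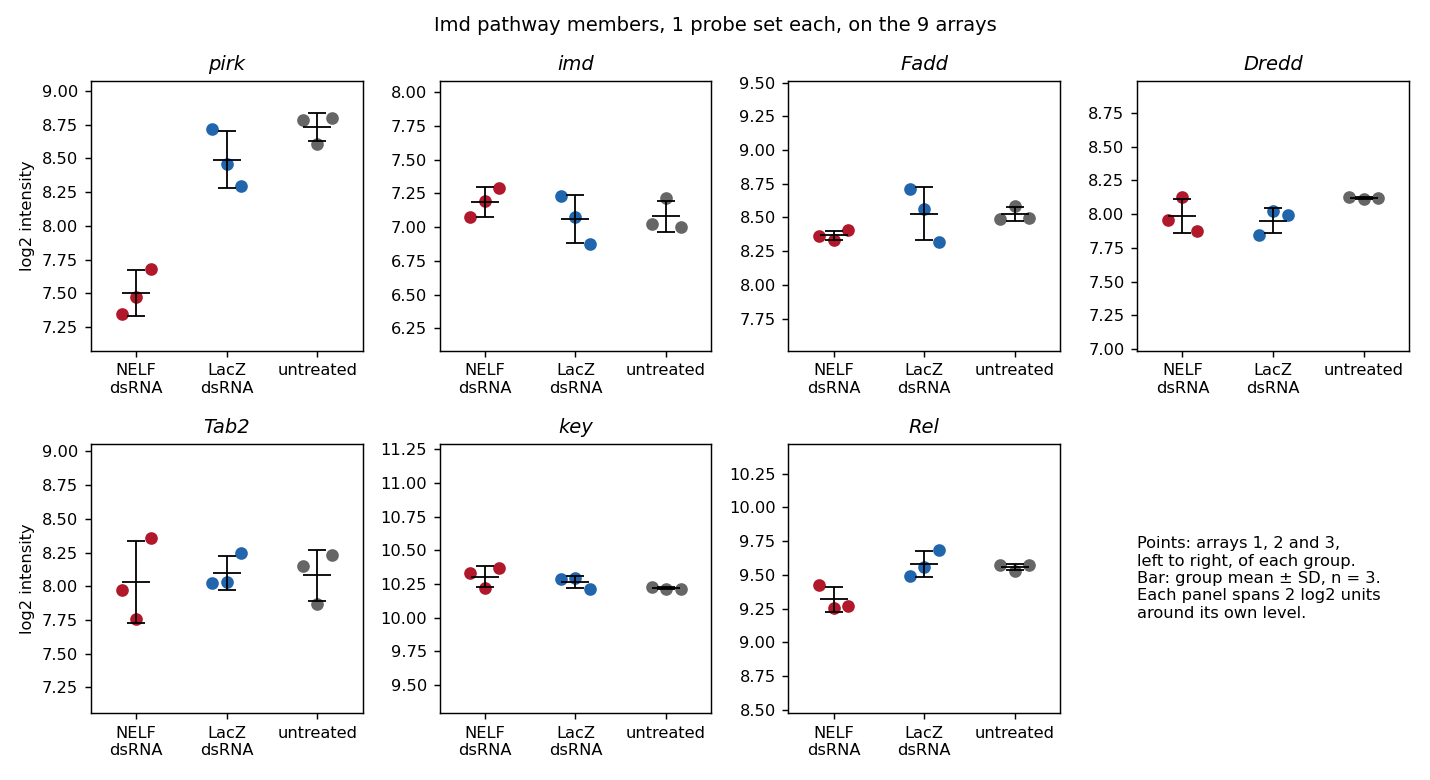
Log2 intensity (vertical axis, 2 log2 units in each panel) of the 7 Imd pathway members on each array, by group, with the group mean and SD (n = 3). For pirk the NELF dsRNA arrays lie at 7.35 to 7.68 and all control arrays at 8.30 or above, the NELF dsRNA arrays of Rel lie slightly below its control arrays, and in the other 5 panels the NELF dsRNA arrays overlap at least 1 control group.

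The pirk probe set (1632964_at, gene CG15678) had log2 intensities of 7.35, 7.47 and 7.68 on NELF dsRNA arrays 1, 2 and 3. On LacZ dsRNA arrays 1, 2 and 3 it had 8.72, 8.46 and 8.30, and in untreated cells 8.79, 8.61 and 8.80. Every NELF dsRNA array was below every control array, and the LacZ dsRNA and untreated ranges overlapped. The fall was 1.98-fold against LacZ dsRNA (log2 difference -0.99, SE 0.12, 95% interval -1.24 to -0.74, limma adjusted p = 7.37e-05). Against untreated cells it was 2.34-fold (log2 difference -1.23, SE 0.12, 95% interval -1.48 to -0.98, limma adjusted p = 6.24e-06). The NELF dsRNA arrays are shared by these comparisons. LacZ dsRNA against untreated cells gave a pirk difference of -0.24 (log2, SE 0.12, 95% interval -0.49 to 0.01) that did not pass (limma adjusted p = 0.485).

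NELF dsRNA array 3 and LacZ dsRNA array 1, the arrays with the fewest measured probe sets, gave the highest pirk value of their groups. Without both, pirk was -0.96 against LacZ dsRNA (log2, limma adjusted p = 8.53e-05) and -1.32 against untreated cells (limma adjusted p = 1.85e-06). Among 354 probe sets called lower against LacZ dsRNA, pirk ranked 150 by size of the fall, and 142 among 459 called lower against untreated cells. The median log2 difference of the called falls was -0.84 and -0.74 in these comparisons, so pirk lay somewhat beyond the middle of each. Among the 7599 tested probe sets with a mean above the detection limit, 2.57% were lower than pirk in NELF dsRNA against LacZ dsRNA.

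**Figure D2:**
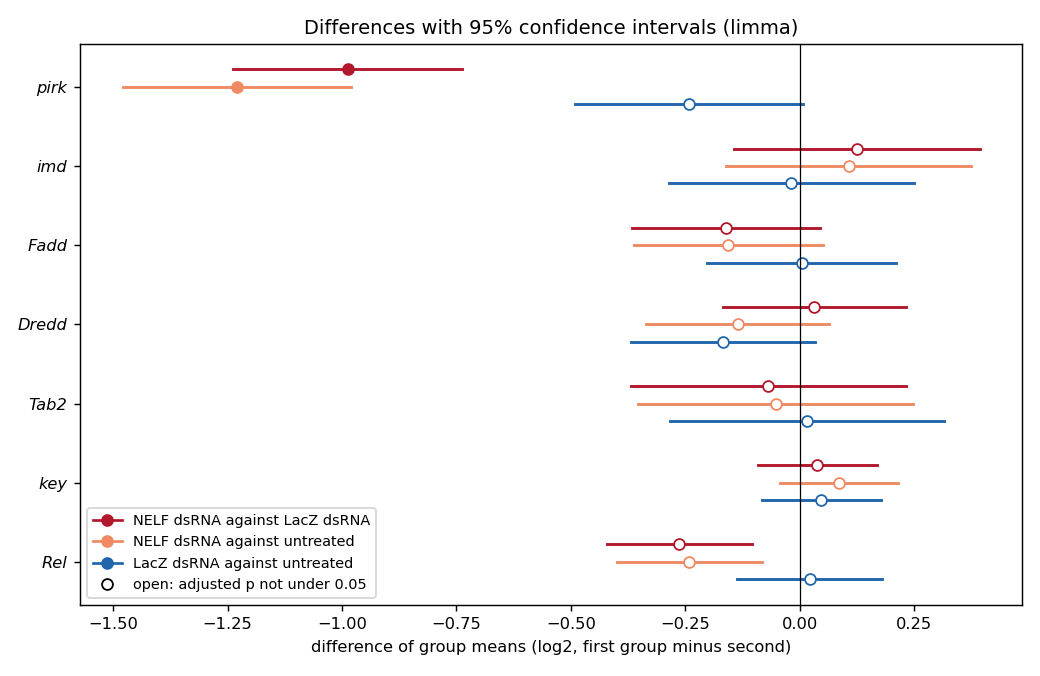
Differences of group means (log2, horizontal axis) for each member in 3 comparisons, with 95% confidence intervals, where filled points passed the test. The pirk intervals for NELF dsRNA end at -0.74 and -0.98, and the intervals of imd, Fadd, Dredd, Tab2 and key all include 0.

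The receptor-proximal adaptors did not pass. The adaptor gene imd (1637332_at, CG5576) had 7.07, 7.20 and 7.29 on the NELF dsRNA arrays, 7.23, 7.08 and 6.88 on the LacZ dsRNA arrays and 7.03, 7.21 and 7.00 in untreated cells (log2 intensity, arrays 1 to 3). The 3 ranges overlapped. Its difference was 0.13 (log2, SE 0.13, 95% interval -0.14 to 0.39) against LacZ dsRNA and 0.11 (95% interval -0.16 to 0.38) against untreated cells, so a rise beyond 1.31-fold lies outside both intervals.

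Fadd (1630987_at, CG12297), the adaptor that links Imd to Dredd, had 8.36, 8.33 and 8.40 on the NELF dsRNA arrays, 8.71, 8.56 and 8.32 on the LacZ dsRNA arrays and 8.49, 8.58 and 8.50 in untreated cells. The NELF dsRNA arrays lay below all untreated arrays but not below LacZ dsRNA array 3. Its differences of -0.16 against each control group (log2, SE 0.10; 95% intervals -0.37 to 0.05 and -0.36 to 0.05) did not pass (limma adjusted p = 0.494 against LacZ dsRNA and 0.449 against untreated cells).

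Dredd (1639071_a_at, CG7486), the caspase that cleaves Imd and acts on Relish, had 7.96, 8.12 and 7.87 on the NELF dsRNA arrays, 7.85, 8.02 and 7.99 on the LacZ dsRNA arrays and 8.13, 8.11 and 8.12 in untreated cells. Its lowest values were spread over both dsRNA groups, and the LacZ dsRNA arrays lay below all untreated arrays. The Dredd difference was 0.03 (log2, SE 0.09) against LacZ dsRNA and -0.14 (SE 0.09) against untreated cells, and that of LacZ dsRNA against untreated cells was -0.17 (limma adjusted p = 0.562). None passed.

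At the kinase level, Tab2 (1627702_at, CG7417), the ubiquitin-binding partner of Tak1, was the most variable member. It had 7.98, 7.76 and 8.36 on the NELF dsRNA arrays, 8.02, 8.03 and 8.24 on the LacZ dsRNA arrays and 8.15, 7.87 and 8.23 in untreated cells. Both the lowest and the highest Tab2 value came from the NELF dsRNA group, whose SD of 0.30 was the highest among the members. Its differences were -0.07 and -0.05 against the control groups (log2, SE 0.14), with 95% intervals from -0.37 to 0.23 and from -0.35 to 0.25.

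The gene key (1623762_at, CG16910), which encodes the regulatory subunit of the IκB kinase complex, had the narrowest intervals. Its log2 intensity was 10.33, 10.22 and 10.37 on the NELF dsRNA arrays, 10.29, 10.29 and 10.21 on the LacZ dsRNA arrays and 10.22, 10.21 and 10.22 in untreated cells. The difference of 0.04 against LacZ dsRNA (log2, SE 0.06, 95% interval -0.09 to 0.17) and of 0.09 against untreated cells (95% interval -0.04 to 0.22) did not pass.

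Rel (1627376_at, CG11992), the NF-κB factor at the end of the cascade, had 9.43, 9.26 and 9.27 on the NELF dsRNA arrays, 9.49, 9.56 and 9.69 on the LacZ dsRNA arrays and 9.57, 9.53 and 9.57 in untreated cells. Every NELF dsRNA array lay below every control array. The Rel difference was -0.26 (log2, SE 0.07, 95% interval -0.42 to -0.10, limma adjusted p = 0.0607) against LacZ dsRNA and -0.24 (SE 0.07, 95% interval -0.40 to -0.08, limma adjusted p = 0.0738) against untreated cells. Neither passed over all probe sets, although each interval for this gene alone leaves out 0. LacZ dsRNA and untreated cells differed by 0.02 (95% interval -0.14 to 0.18). In NELF dsRNA against LacZ dsRNA, Rel passed without NELF dsRNA array 1 (limma adjusted p = 0.0385), without LacZ dsRNA array 1 (0.0259) and with only probe sets above the detection limit (0.0451). Against untreated cells it passed without NELF dsRNA array 1 (limma adjusted p = 0.0479) and without LacZ dsRNA array 1 (0.0413).

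Counted together, 1 of 7 members was called in NELF dsRNA against LacZ dsRNA, where 4.53% of 12975 tested probe sets were called. The called higher came to 1.8% and the called lower to 2.73% of all tested. In NELF dsRNA against untreated cells 1 of 7 was called, where 6.22% of 12973 were called, 2.68% of all tested as higher and 3.54% as lower. In LacZ dsRNA against untreated cells 0 of 7 members passed, where limma called 0.054% of 12974 probe sets, and 0 of 7 had an unadjusted p under 0.05. Arrays did not overlap for 2 members, pirk and Rel, in NELF dsRNA against LacZ dsRNA, a share of 28.6% beside 22.6% of all tested probe sets. Against untreated cells this held for 3 members, with Fadd as the third, a share of 42.9% beside 28.3%. In LacZ dsRNA against untreated cells it held for 1 member, Dredd, a share of 14.3% beside 19.9%. With 7 members these shares lie within 1 or 2 genes of the background.

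The median log2 difference of the 7 members was -0.07 against LacZ dsRNA, beside 0.01 over all tested probe sets, and -0.14 against untreated cells, beside 0.003. For the 6 members other than pirk the median was -0.02 and -0.09, and their log2 differences ran from -0.26 to 0.13 and from -0.24 to 0.11.

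**Figure D3:**
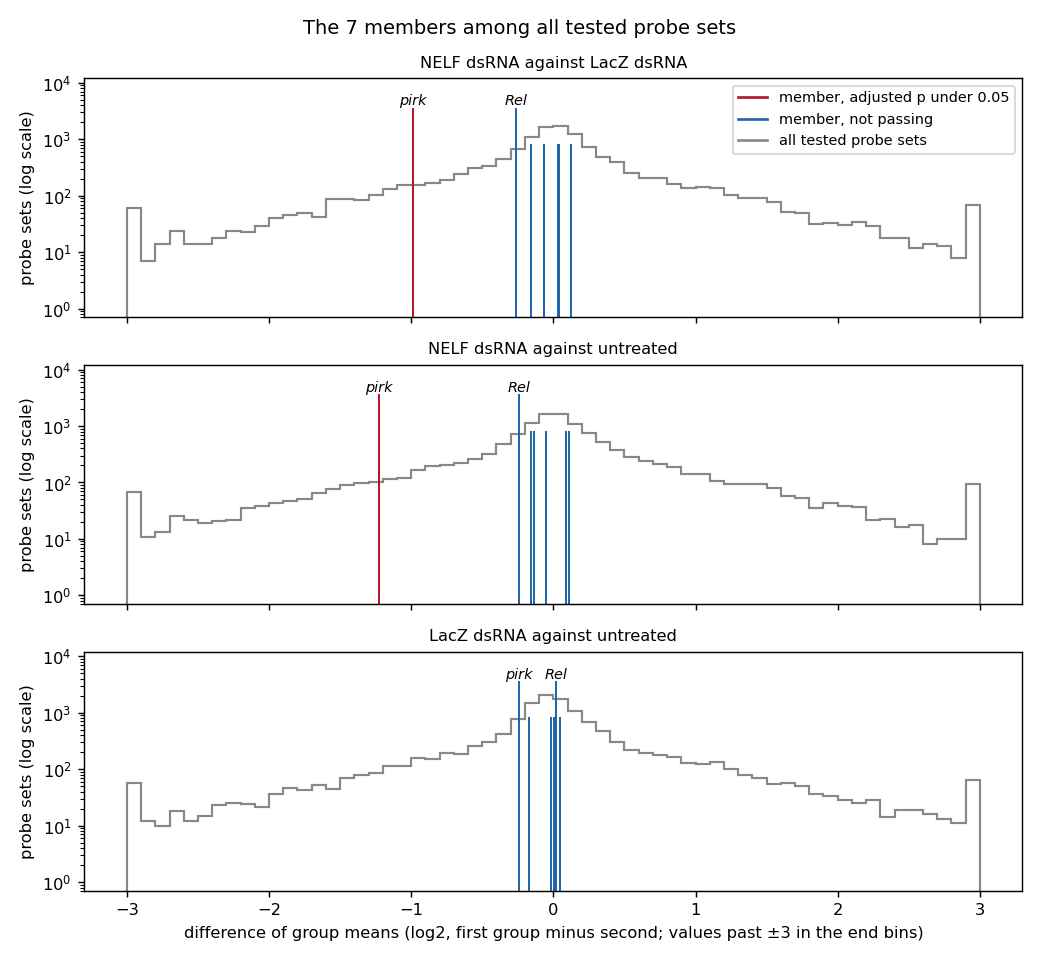
Number of tested probe sets (vertical axis, log scale) by difference of group means (log2, horizontal axis) in 3 comparisons, with a vertical line for each member. In the 2 panels with NELF dsRNA pirk stands at -0.99 and -1.23, apart from the other 6, and between the control groups all 7 lie from -0.24 to 0.05. The end bins also hold values beyond the axis.

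Other genes of the pathway were counted in lists by role. Of 11 listed peptidoglycan recognition genes 6 had a probe set assigned to that gene alone, and PGRP-LC, the main receptor of the pathway, was not analysed here. By limma 0 of the 6 passed against LacZ dsRNA, where 1 had an unadjusted p under 0.05. Against untreated cells 1 of the 6 fell, beside 6.22% of all tested probe sets called. PGRP-LB, also among the 6, was above the detection limit on no array, so its result says little. PGRP-LE, the receptor for peptidoglycan inside the cell, had 5.25, 4.96 and 4.92 on the NELF dsRNA arrays, 5.11, 4.77 and 5.03 on the LacZ dsRNA arrays and 5.47, 4.31 and 5.22 in untreated cells (log2 intensity). The PGRP-LE groups overlapped, and its differences of 0.07 and 0.05 (log2, SE 0.30) left a wide 95% interval of -0.57 to 0.71 against LacZ dsRNA.

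PGRP-LA, a relative of PGRP-LC, had 7.66, 7.71 and 7.92 on the NELF dsRNA arrays, 8.31, 8.12 and 7.76 on the LacZ dsRNA arrays and 8.16, 8.31 and 8.19 in untreated cells. LacZ dsRNA array 3 fell within the NELF dsRNA range. PGRP-LA was 1.37-fold lower than in untreated cells (log2 difference -0.46, SE 0.13, limma adjusted p = 0.0453), and its difference of -0.30 against LacZ dsRNA did not pass (limma adjusted p = 0.264). The call against untreated cells was lost under 9 of 16 alternatives, with adjusted p up to 0.267, among them without NELF dsRNA array 1 or 2, LacZ dsRNA array 2 or any 1 untreated array. Without LacZ dsRNA array 3 PGRP-LA passed against LacZ dsRNA as well (limma adjusted p = 0.0337).

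By limma 0 of the 5 tested ubiquitin and kinase partners passed in any comparison, and 1 had an unadjusted p under 0.05 against each control group. The brightest were Uev1A and ben, which encode the paired subunits of the enzyme that makes Lys63-linked ubiquitin chains. Uev1A averaged 11.43 ± 0.03 after NELF dsRNA, 11.43 ± 0.04 after LacZ dsRNA and 11.52 ± 0.006 in untreated cells (log2 intensity, SD, n = 3 each). For ben the averages were 10.83 ± 0.10 after NELF dsRNA, 10.94 ± 0.15 after LacZ dsRNA and 10.84 ± 0.02 in untreated cells (SD, n = 3 each). IKKbeta, the catalytic partner of Kenny, is given here after its values were seen. It had 6.57, 6.44 and 6.33 on the NELF dsRNA arrays, 6.81, 6.73 and 6.90 on the LacZ dsRNA arrays and 6.74, 6.82 and 6.82 in untreated cells. All NELF dsRNA arrays of IKKbeta lay below all control arrays, and its differences of -0.37 and -0.34 (log2, SE 0.13) did not pass (limma adjusted p = 0.148 in both comparisons). Arrays did not overlap for 1 of the 5 partners against LacZ dsRNA, beside 22.6% of all tested probe sets. Against untreated cells they did not overlap for 2 of 5, IKKbeta and Uev1A, beside 28.3%.

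Of the other negative regulators of the pathway, 0 of 13 tested passed against LacZ dsRNA by limma and 0 of 11 against untreated cells, with 0 and 2 at an unadjusted p under 0.05. The list holds casp (Caspar), deubiquitinases such as CYLD, scny and trbd, and the ubiquitin ligase subunits SkpA, Cul1 and slmb. Of the 13, cad, dnr1 and nub were not above the detection limit on every array. The log2 differences of the other 10 against LacZ dsRNA ran from -0.25 (casp) to 0.07 (CYLD), where pirk had -0.99, and against untreated cells from -0.21 to 0.32, where pirk had -1.23. The brightest were SkpA, at 11.67 ± 0.04 after NELF dsRNA, 11.74 ± 0.04 after LacZ dsRNA and 11.82 ± 0.05 in untreated cells, and Cul1, at 9.73 ± 0.07 after NELF dsRNA, 9.83 ± 0.17 after LacZ dsRNA and 9.69 ± 0.009 in untreated cells (log2 intensity, SD, n = 3 each).

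Of 6 tested nuclear partners of Relish, 2 rose against untreated cells, beside 6.22% of all tested probe sets called. By limma 0 of 6 passed against LacZ dsRNA, where 0 had an unadjusted p under 0.05. Such a p was found for 3 of 6 in NELF dsRNA against untreated cells and for 2 of 6 in LacZ dsRNA against untreated cells. The gene akirin, which encodes a nuclear factor that acts with Relish, had 10.75, 10.68 and 11.05 on the NELF dsRNA arrays, 10.93, 10.65 and 10.59 on the LacZ dsRNA arrays and 10.43, 10.50 and 10.44 in untreated cells. The GATA factor gene srp had 10.14, 9.85 and 10.28 on the NELF dsRNA arrays, 9.98, 9.99 and 10.08 on the LacZ dsRNA arrays and 9.69, 9.71 and 9.83 in untreated cells. For both genes every array of either dsRNA group lay above every untreated array. Arrays did not overlap for 28.3% of all tested probe sets in NELF dsRNA against untreated cells. In LacZ dsRNA against untreated cells the share was 19.9%. Against untreated cells akirin rose by 0.37 (log2, SE 0.10, limma adjusted p = 0.0337) and srp by 0.34 (SE 0.09, limma adjusted p = 0.0362). LacZ dsRNA against untreated cells gave 0.27 for each, which did not pass (limma adjusted p = 0.34 for akirin and 0.293 for srp). NELF dsRNA array 3 held the highest value of both genes, and without it neither passed (limma adjusted p = 0.134 for akirin and 0.151 for srp). The akirin call was also lost without LacZ dsRNA array 2 or any 1 untreated array, and the srp call without NELF dsRNA array 1, LacZ dsRNA array 2 or untreated array 1 or 2. Both were lost without the variance trend as well (limma adjusted p = 0.314 for akirin and 0.304 for srp).

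Of 7 genes listed with the JNK branch, which leaves the cascade at Tak1, 6 did not pass in either comparison, among them hep, bsk, kay and puc. The exception was egr, which encodes a tumour necrosis factor ligand that signals through JNK. It is thus not a step of the branch below Tak1. This 1 of 7 stands beside 4.53% of all tested probe sets called against LacZ dsRNA and 6.22% against untreated cells. The brighter egr probe set had 8.37, 8.04 and 8.19 on the NELF dsRNA arrays, 8.92, 8.97 and 8.86 on the LacZ dsRNA arrays and 9.42, 9.13 and 9.11 in untreated cells. The 3 groups of egr did not overlap, with NELF dsRNA lowest. Over all tested probe sets, arrays did not overlap for 22.6% in NELF dsRNA against LacZ dsRNA. The share was 28.3% in NELF dsRNA against untreated cells and 19.9% in LacZ dsRNA against untreated cells. The gene egr fell 1.64-fold against LacZ dsRNA (log2 difference -0.71, SE 0.10, limma adjusted p = 4.06e-04) and 2.02-fold against untreated cells (log2 difference -1.02, SE 0.10, limma adjusted p = 1.04e-05). The other egr probe set also fell, by 1.16 and by 1.91 on the log2 scale.

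**Figure D4:**
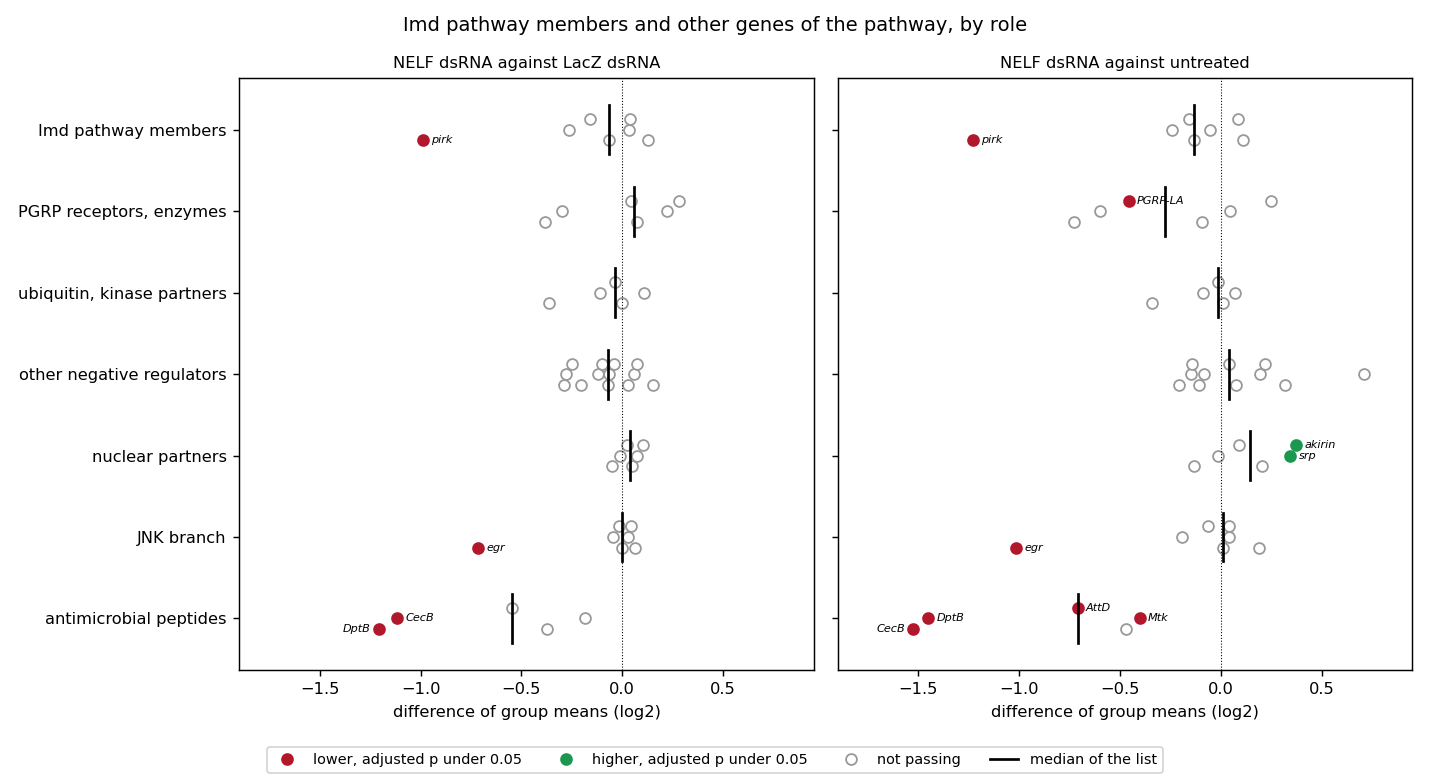
Differences of group means (log2, horizontal axis) of every tested gene of each list, against LacZ dsRNA and against untreated cells, with the list median as a vertical bar and called genes filled and named. Only pirk among the members is called, and the called genes of the other lists are egr, PGRP-LA, akirin, srp and antimicrobial peptide genes.

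Over the 5 lists from receptors to the JNK branch, 1 of 37 tested genes, egr, was called against LacZ dsRNA. This was a share of 2.7% beside 4.53% of all tested probe sets. Against untreated cells 4 of 35 were called, 2 in each direction, a share of 11.4% beside 6.22%. LacZ dsRNA against untreated cells gave no call by limma among 35, beside 0.054% of all probe sets. There 7 of 35 had an unadjusted p under 0.05, a higher share than the 10.7% of all tested probe sets. For NELF dsRNA the share of all tested probe sets with an unadjusted p under 0.05 was 15% against LacZ dsRNA and 17.8% against untreated cells. In the lists, from receptors to the JNK branch in the order given, 1, 1, 0, 0 and 1 genes had such a p against LacZ dsRNA. Against untreated cells these counts were 1, 1, 2, 3 and 1.

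Of 14 listed antimicrobial peptide genes 8 had no probe set assigned to that gene alone, among them DptA, AttA, AttB, AttC, CecA1 and CecA2. Probe sets shared by several genes were not counted. Def had too few values for a test of NELF dsRNA, which left CecB, DptB, AttD, Mtk and Drs. Of these 5 genes, 2 fell against LacZ dsRNA, CecB by 1.12 and DptB by 1.21 on the log2 scale (limma adjusted p = 8.76e-05 and 5.37e-04), beside 4.53% of all tested probe sets called. Against untreated cells 4 fell, CecB by 1.53, DptB by 1.45, AttD by 0.71 and Mtk by 0.40 on the log2 scale, with limma adjusted p up to 0.0155, beside 6.22% called. Drs differed by -0.55 against LacZ dsRNA and by -0.47 against untreated cells, and neither passed (limma adjusted p = 0.15 and 0.196). AttD lost its call without the variance trend (limma adjusted p = 0.119), and Mtk lost its call under 6 of 16 alternatives, among them without NELF dsRNA array 1 or 2 or untreated array 1 or 3. In LacZ dsRNA against untreated cells 0 of 6 passed by limma and 3 had an unadjusted p under 0.05, with a median log2 difference of -0.29, CecB at -0.41 and AttD at -0.34.

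Genes whose values over the 9 arrays were most like those of pirk were sought among 6481 named probe sets measured on every array with a mean above the detection limit, by Pearson's r. The arrays form 3 groups, so that r mostly follows the group means, and it is given as a description. The closest were CG32032 (r = 0.993), CG1998 (r = 0.988), CG16985 (r = 0.985), peg (r = 0.982) and fuss (r = 0.982). No other member and no gene of the other lists was among these 5. With only 5 genes taken from 6481 candidates, this says little about the rest of the pathway.

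All 5 had their lowest values on the NELF dsRNA arrays, which follows from choosing them by likeness to pirk on these same arrays. Their differences and calls describe them and are no separate support for the fall of pirk. CG1998 had 6.58, 6.61 and 6.79 on the NELF dsRNA arrays, 8.02, 7.90 and 7.81 on the LacZ dsRNA arrays and 8.16, 8.09 and 8.13 in untreated cells. Its log2 difference was -1.25 against LacZ dsRNA and -1.47 against untreated cells. CG16985 differed by -1.60 and -1.81, peg by -0.66 and -0.95 and CG32032 by -0.64 and -0.70 on the log2 scale, and these were called in both comparisons. The SKI family gene fuss differed by -0.50 against LacZ dsRNA, which did not pass (limma adjusted p = 0.141), and by -0.71 against untreated cells (limma adjusted p = 0.0193).

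**Figure D5:**
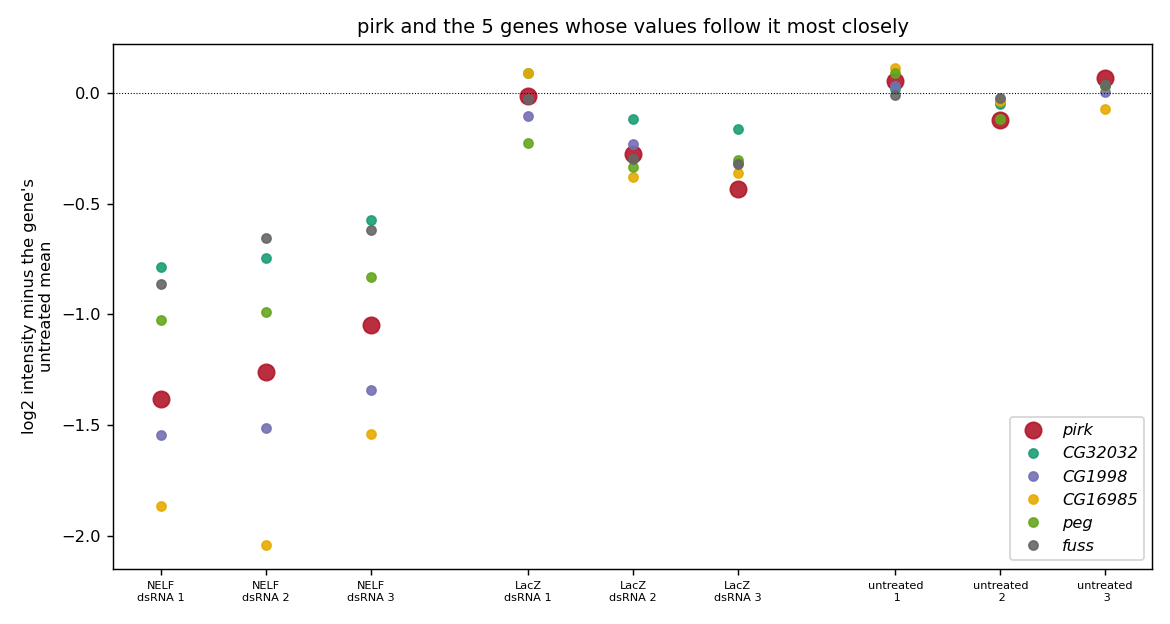
Log2 intensity minus the gene's untreated mean (vertical axis) on each of the 9 arrays for pirk and the 5 genes most like it. All 6 genes lie lower on every NELF dsRNA array than on any control array, and on LacZ dsRNA array 1 each lies closer to its untreated mean than on LacZ dsRNA arrays 2 and 3. The 5 genes were chosen for their likeness to pirk on these arrays, so the shared pattern follows from the choice.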

How the data were processed

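Total RNA of S2 cells was hybridized to Affymetrix Drosophila Genome 2.0 arrays. The deposited table gives a log2 intensity for each probe set on each array. The scale is not labelled and was taken as log2 because values lie between -16.3 and 13.6. Per the series' design text, scans were read with GeneChip Operating Software 1.2.0.037 and imported into Rosetta Resolver 6.0. How the authors summarized and normalized probes is not given in the sources. Empty cells (21.2%) were kept as missing. Over 9266 probe sets with a value on all 9 arrays, the array medians lay within 0.025, under the bound of 0.1, so no normalization was added.

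Gene names come from the platform annotation, with symbols updated to RefSeq through the gene identifier. Of 17899 probe sets other than the 95 controls, 13086 had 1 gene, 12988 of them with a matching identifier, 389 had several genes and 4424 were unnamed here. Probe sets with several genes gave no name.

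Differences were fitted with limma 3.58.1 in R 4.3.3 (lmFit, eBayes with a mean-variance trend), 1 mean per group and the spread from all 9 arrays. Probe sets with at least 2 values in each group compared were tested, with Benjamini-Hochberg adjustment over all of them and a threshold of 0.05. The fit was run on data simulated with independent noise, with shifts of 1 log2 unit planted in probe sets measured on all 9 arrays. Smaller differences and array effects shared by many probe sets were not simulated. A gene's brightest probe set stood for it, and intervals are unadjusted 95% intervals of the fit. The labels do not say whether replicate arrays stem from separate cultures, and the p-values then reflect the spread between these arrays alone, which may be technical. The number of arrays limits the precision.

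Named by rule were all members, the dsRNA targets, PGRP-LC, PGRP-LE, the called genes of each list (at most 6, or the 2 brightest where none was called) and the 5 genes most like pirk. Outside this rule IKKbeta was added after its values were seen. Values are also given for casp and CYLD as the ends of a range, for Drs and for hemocyte markers. The members and lists were chosen with earlier results of these data known.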

Additional observations from a re-analysis of the deposited data

How the results depend on the processing

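The pirk calls against both control groups held under all 16 alternatives run, with log2 differences from -1.08 to -0.87 against LacZ dsRNA (adjusted p up to 0.0281) and from -1.32 to -1.15 against untreated cells (adjusted p up to 0.0101). Leaving out 1 array at a time moved the count of members called between 1 and 2 in both comparisons. The second member was Rel each time. The count was also 2 against LacZ dsRNA with only probe sets above the detection limit, where fewer were tested, and 2 against untreated cells with only the 6 arrays compared. Of 336 member differences under alternatives 330 stayed on their side of the threshold and 16, none of them called, changed sign. Without the variance trend 189 probe sets were called against LacZ dsRNA, 262 against untreated cells and 1 between the control groups, where the main counts were 588, 807 and 7, and the calls of egr and DptB against LacZ dsRNA were lost (adjusted p = 0.0604 and 0.0568), as were those of PGRP-LA, akirin, srp, AttD and Mtk against untreated cells (0.119 to 0.314). Between the control groups the count was 1 with a floor at the 10th percentile, 12 with only probe sets above the limit and 34 with both NELF dsRNA array 3 and LacZ dsRNA array 1 left out. Leaving out 1 array at a time moved the counts of probe sets called from 430 to 688 against LacZ dsRNA, from 546 to 1005 against untreated cells and between the control groups it ran from 1 to 15. The cause was not tested. Deviations of same-numbered arrays from their group means correlated between -0.11 and 0.10, and those of other-numbered arrays between -0.15 and 0.185. With 3 arrays per group these correlations cannot show whether same-numbered arrays shared a culture or day. With the replicate number as a block, pirk had adjusted p = 1.95e-04 against LacZ dsRNA and 2.24e-05 against untreated cells, with 563 and 741 probe sets called. The block ended the call of PGRP-LA against untreated cells (adjusted p = 0.0646). Averaging a gene's probe sets gives no other value for members, which have 1 each.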
